A study of Mus musculus with 4 samples.

Results

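The genes described are those of the cytosolic ribosome, the particle that translates messenger RNA outside the mitochondria. They were chosen by name alone, as the symbols Rpl or Rps followed by a number together with Rplp0, Rplp1, Rplp2 and Rpsa. Pseudogene symbols ending in -ps and the S6 kinase genes were left out, and a gene needed a transcript cluster of its own. The array reports 1 value per transcript cluster, a set of probes for a transcribed region. The rule gave 46 genes of the 30702 genes that had such a cluster. Of these 46, 33 encode proteins of the ribosome itself, 15 of the small and 18 of the large subunit, and 13 are paralogs, retrocopies or other symbols that the rule catches. Ribosomal protein genes whose clusters also name a pseudogene or a small nucleolar RNA are not members, among them Rplp1, Rplp2, Rps6, Rps27, Rpl3, Rpl5, Rpl10 and Rpl35a.

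The study hybridised RNA from mouse bone marrow to 4 Affymetrix arrays, 1 each for cisplatin, Astragalus membranaceus, electro-acupuncture and control. Cisplatin is a platinum drug that crosslinks DNA, and astragalus is a root used in Chinese medicine. Marrow was spun out of the tibias after 2 weeks of treatment, and 6 marrow samples were mixed per the design text, which does not assign them to groups. The labels used here state no strain, age, sex or dose, nor whether the astragalus and electro-acupuncture mice, or any other group, had cisplatin as well. Each group is 1 array, so no test was run, no difference has a replicate check, and fewer cells of a type cannot be told apart from less RNA per cell. Marrow markers were present on every array. The 5 mature neutrophil genes lay between 16.11 and 19.93 on the log2 scale, and the 5 skeletal muscle genes lay between 4.60 and 5.92, around the floor of 5.235 used here for low levels.

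A ribosome has a small subunit, which reads the messenger RNA, and a large subunit, which joins the amino acids, and each holds many proteins made in nearly equal numbers. The messenger RNAs of these proteins begin with a run of pyrimidines, the TOP motif, through which growth signals switch their translation together. Blood-forming marrow is sensitive to the supply of these proteins. In humans, loss of 1 copy of several of the genes causes Diamond-Blackfan anaemia, in which red cell precursors fail, and free Rpl11 binds the ubiquitin ligase Mdm2 and so stabilises p53.

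Of the 46 genes, 42 were above the floor, which is the median of the mean levels of all 65956 clusters. Their median log2 level was 11.91 in the cisplatin array, 12.34 in astragalus, 11.96 in electro-acupuncture and 11.44 in control. The median of all 17208 genes above the floor was 6.79 in cisplatin, 6.83 in astragalus, 6.80 in electro-acupuncture and 6.74 in control. Levels of different clusters depend on their probes, so they are compared between arrays and not between genes.

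**Figure D1:**
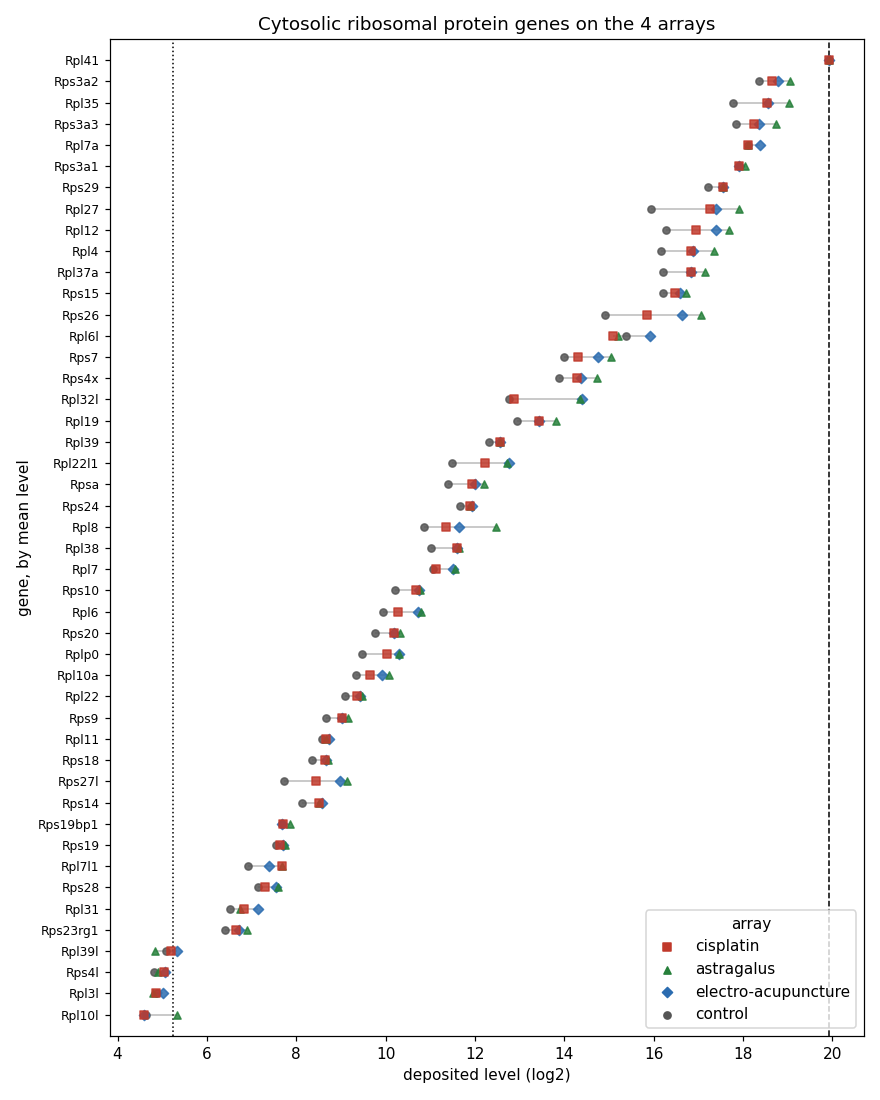
Deposited log2 level (horizontal axis) of the 46 genes on each of the 4 arrays, 1 point per array, ordered by mean level, with the floor of 5.235 dotted and the ceiling of 19.93 dashed. Equal levels lie on top of each other, the control array is the lowest for most genes, and Rpl41 lies on the ceiling on all 4 arrays.

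The highest value in the data is 19.93, and it was reached by 1 member on all 4 arrays, Rpl41, a very short protein of the large subunit. No other member reached it on any array. A difference of Rpl41 cannot be measured there. Its second cluster, on the gene's own chromosome, was at 9.76 in cisplatin, 9.76 in astragalus, 9.76 in electro-acupuncture and 9.70 in control. The 4 members below the floor were Rpl3l, a paralog of heart and skeletal muscle, Rpl10l and Rpl39l, paralogs known from the testis, and Rps4l, which RefSeq lists as a transcribed pseudogene. Their levels lay between 4.60 and 5.32, and the highest value was reached by Rpl10l in astragalus and by Rpl39l in electro-acupuncture.

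Across the 42 genes above the floor the control array was the lowest of the 4 for 37 genes (88.1%), against 32.5% of all genes. Astragalus was the highest for 30 (71.4%), against 34.5% of all genes. The order astragalus, electro-acupuncture, cisplatin, control was seen for 22 (52.4%), against 11.5% of all genes. The 3 comparisons with control share that array, and the place of astragalus depends on the scaling, as given below.

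The comparison of cisplatin with control asks how the ribosomal protein genes stood after the drug. In the cisplatin array 38 of the 42 genes were higher, 3 were equal and 1 was lower, while of all genes 50.6% were higher, 2.51% equal and 46.9% lower. The median log2 difference was 0.33, against 0.01 over all genes, and it was 0.28 with the trend of differences on level removed by loess. Only Rpl27 was at least 2-fold higher, 1 of 42 genes, against 2.00% of all genes, and none was at least 2-fold lower, against 0.965%. Among the 29 members with a mean level of 10 or more that is 3.45%, against 9.01% of all 2153 genes at that level. Their median was 0.41, against 0.09 over those bright genes. In either direction 2.97% of all genes were at least 2-fold different. At 1.5-fold, 9 of 42 were different, all higher, against 11.4% of all genes in either direction.

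Of the 15 small subunit genes 14 were higher, and their median was 0.33. Rps26, a protein near the exit of the messenger RNA channel, was at 15.86 in cisplatin and 14.92 in control, a 1.92-fold difference. Rpsa, also known as the laminin receptor, was at 11.93 in cisplatin and 11.39 in control (1.45-fold). Rps14, whose loss in humans underlies the anaemia of the 5q- syndrome, was at 8.51 in cisplatin and 8.12 in control (1.31-fold). At the low end Rps19, the gene most often mutated in Diamond-Blackfan anaemia, was at 7.63 in cisplatin and 7.54 in control, and Rps3a1 was at 17.91 on both arrays. The small subunit genes thus ranged from no difference to just under 2-fold.

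Of the 18 large subunit genes 16 were higher, with a median difference of 0.41, and 2 were equal, Rpl41 at the ceiling and Rpl7a at 18.10 on both arrays. Rpl27 was at 17.25 in cisplatin and 15.94 in control (2.48-fold), and Rpl35, a protein at the exit of the peptide tunnel, was at 18.54 in cisplatin and 17.77 in control (1.71-fold). Rplp0, the base of the stalk that recruits translation factors, was at 10.02 in cisplatin and 9.48 in control (1.45-fold). Rpl11 was at 8.67 in cisplatin and 8.57 in control, and Rpl7 was at 11.13 in cisplatin and 11.06 in control. Rpl39, a small protein of the peptide tunnel, was at 12.55 in cisplatin and 12.32 in control (1.17-fold).

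Among the 9 other symbols above the floor 8 were higher, with a median of 0.29. RefSeq lists Rps3a2 and Rps3a3 as pseudogenes. Rps3a2 was at 18.65 in cisplatin and 18.36 in control, and Rps3a3 was at 18.24 in cisplatin and 17.85 in control. Rpl7l1, which takes part in making ribosomes, was at 7.69 in cisplatin and 6.92 in control (1.71-fold). Rpl22l1, a paralog that Rpl22 represses in mice, was at 12.22 in cisplatin and 11.49 in control (1.66-fold), while Rpl22 itself was at 9.35 in cisplatin and 9.08 in control (1.21-fold). Rps27l, a paralog of Rps27 that p53 induces in human cells, was at 8.44 in cisplatin and 7.73 in control (1.64-fold). Rps19bp1, which encodes a partner of Rps19 and no ribosomal protein, was at 7.71 in cisplatin and 7.67 in control. The single lower gene was Rpl6l, a pseudogene in RefSeq, at 15.10 in cisplatin and 15.37 in control.

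Of the members, 11 are known Diamond-Blackfan anaemia genes in humans, a list put together after the values were seen. All 11 were higher in cisplatin than in control, from 0.09 for Rps19 to 1.31 for Rpl27, with a median of 0.30. That median is close to the 0.33 of the whole set. Of all genes 50.6% were higher. The 1.31 of Rpl27 is that of its chromosome 18 cluster, and the cluster on its own chromosome gave 0.50.

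**Figure D2:**
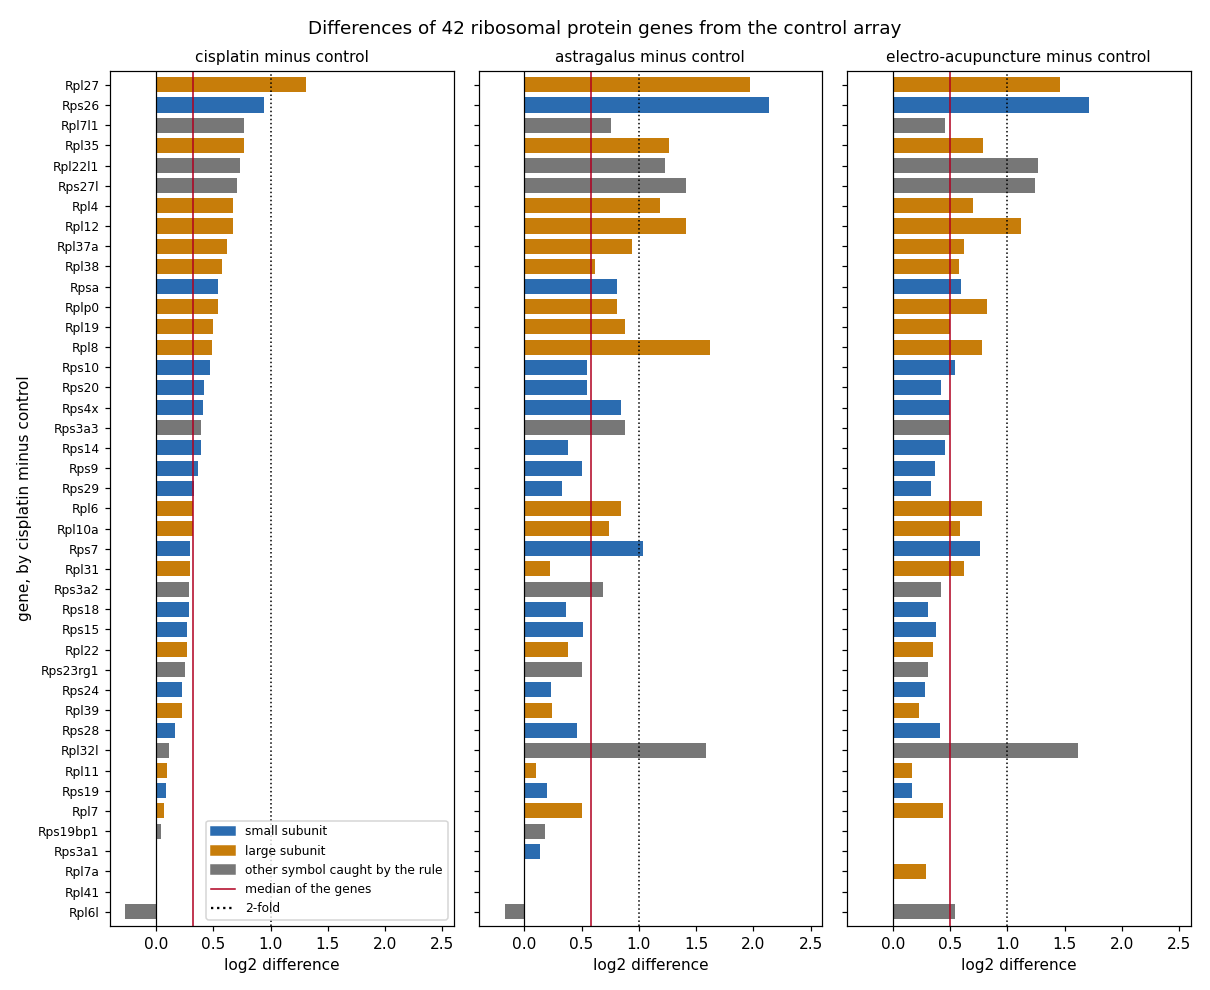
Log2 differences (horizontal axis) of the 42 genes above the floor for cisplatin minus control, astragalus minus control and electro-acupuncture minus control, ordered by the first, with bars coloured by subunit. The red line is the median of the genes (0.33, 0.58 and 0.50) and the dotted line is 2-fold, and Rpl27 is the only bar past 2-fold in the cisplatin panel.

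The stretches around the RefSeq starts of 8 genes of the ribosome are shown, the 4 with the largest and then the 4 with the smallest cisplatin difference among those above the floor, below the ceiling and with a single RefSeq window, so that the letters at both ends of the range can be seen. The order follows the clusters with the highest mean. For Rpl27, Rpl35, Rpl12 and Rpl7a these lie on another chromosome than the stretch shown, and the own-chromosome clusters of Rpl27, Rpl35 and Rpl7a gave 0.50, 0.26 and 0.18. Each runs from 70 bases before to 20 bases after the start in GRCm38.p6, 5′ to 3′ on the gene's strand, and capitals mark matches to CCGGAAG (the core of ETS factor sites), AAGATGG (the core of YY1 sites) or CTTTCC (a pyrimidine run) on either strand.
Rpl27, chr11:101442175-101442264, plus strand: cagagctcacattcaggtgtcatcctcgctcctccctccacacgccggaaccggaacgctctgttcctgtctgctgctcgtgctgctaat
Rps26, chr10:128626487-128626576, minus strand: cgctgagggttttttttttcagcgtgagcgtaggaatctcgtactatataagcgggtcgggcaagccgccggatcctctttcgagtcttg
Rpl35, chr2:39005112-39005201, minus strand: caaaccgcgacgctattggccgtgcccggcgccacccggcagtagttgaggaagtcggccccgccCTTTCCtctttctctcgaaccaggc
Rpl12, chr2:32961642-32961731, plus strand: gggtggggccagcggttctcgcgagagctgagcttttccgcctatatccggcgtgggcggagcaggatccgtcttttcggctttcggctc
Rps28, chr17:33824543-33824632, minus strand: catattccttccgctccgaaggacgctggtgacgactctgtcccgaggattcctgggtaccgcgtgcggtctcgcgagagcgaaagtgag
Rpl11, chr4:136053374-136053463, minus strand: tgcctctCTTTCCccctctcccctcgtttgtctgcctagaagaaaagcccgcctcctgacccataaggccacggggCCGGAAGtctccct
Rpl7a, chr2:26910737-26910826, plus strand: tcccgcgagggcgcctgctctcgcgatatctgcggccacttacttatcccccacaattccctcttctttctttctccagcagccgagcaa
Rps3a1, chr3:86142649-86142738, minus strand: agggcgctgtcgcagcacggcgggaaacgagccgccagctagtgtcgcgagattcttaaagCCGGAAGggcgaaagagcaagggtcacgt
Rpl35, Rpl11 and Rps3a1 held matches and the other 5 stretches held none, and no 2 matches overlap. RefSeq windows of 300 bases, from 250 before to 50 after a start, were found for 37 of the 46 genes, 45 windows in all. CCGGAAG was in 35.6% of them, against 8.86% of all 32851 windows. CTTTCC was in 48.9%, against 26.6%, and AAGATGG in 11.1%, against 6.34%. The median cisplatin difference was 0.32 for the 15 genes above the floor with CCGGAAG and 0.32 for the 19 without, and it was 0.41 for the 19 with CTTTCC and 0.27 for the 15 without. With AAGATGG it was 0.30 over 5 genes and without it 0.32 over 29. These medians use the clusters with the highest mean, some on another chromosome than the window, and were not recalculated with own-chromosome clusters. A match counted on either strand and anywhere in the window, so a CTTTCC match need not be the TOP motif.

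For 6 of the 46 genes the cluster with the highest mean does not lie on the gene's own RefSeq chromosome. The cluster names begin with a chromosome, which equals that of RefSeq for 99.7% of the clusters compared. The 6 genes are Rpl7a, Rpl12, Rpl27, Rpl31, Rpl35 and Rpl41, and such clusters may read close copies elsewhere in the genome, which was not tested. Rpl27 on its own chromosome, 11, was at 10.40 in cisplatin, 10.61 in astragalus, 10.65 in electro-acupuncture and 9.90 in control, where its cisplatin difference was 0.50 and no longer 2-fold. Rpl35 on its own chromosome, 2, was at 16.32 in cisplatin, 16.32 in astragalus, 16.32 in electro-acupuncture and 16.06 in control, a difference of 0.26 in place of 0.77. Rpl7a on its own chromosome was at 11.57 in cisplatin and 11.39 in control, so the cluster that showed no difference and this one do not give the same answer. Rps26 had 3 clusters, and the one used is on its own chromosome, 10. Its others, on chromosomes 8 and 12, were 0.80 and 0.24 higher in cisplatin than in control. With own-chromosome clusters alone, 40 genes remained, the median was 0.32 and 38 were higher, with none at least 2-fold different.

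**Figure D3:**
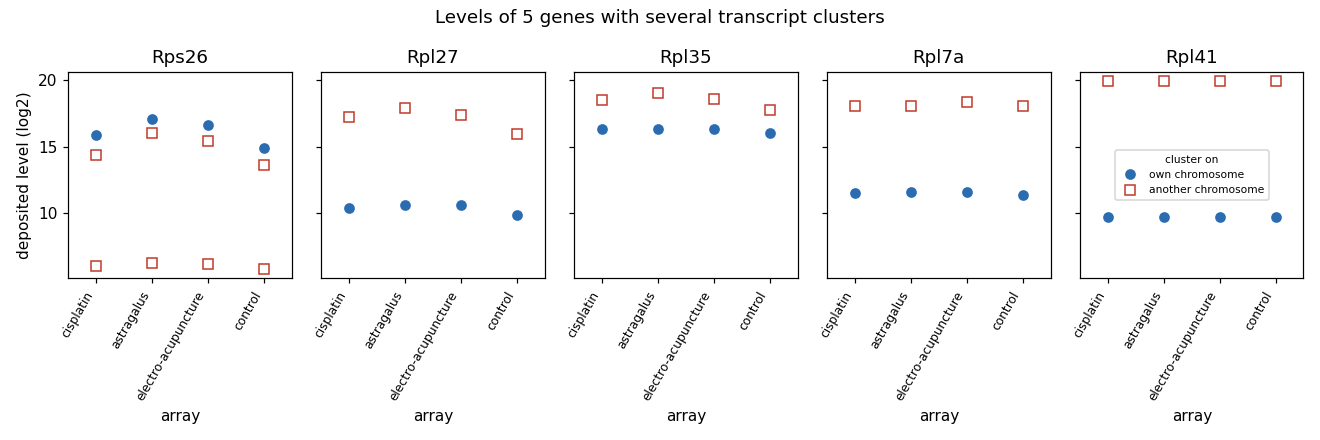
Deposited log2 levels (vertical axis) on the 4 arrays for 5 genes with several transcript clusters, with filled circles for a cluster on the gene's own chromosome and open squares for one on another chromosome. The clusters of 1 gene differ widely in level, and Rpl27 differs more between cisplatin and control in its chromosome 18 cluster (1.31) than in its own (0.50).

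Astragalus was then set against cisplatin, to see how the genes stood under the herb and the drug. In the astragalus array 34 of the 42 genes were higher, 5 equal and 3 lower, while of all genes 56.8% were higher, 2.29% equal and 40.9% lower. The median was 0.26 against 0.06 over all genes. This direction depends on the scaling, since the median was 0.12 after quantile normalization and -0.06 with the loess trend removed, when 18 genes were higher and 24 lower. At least 2-fold higher were 3 genes (2.00% of all genes were) and none was at least 2-fold lower (1.92% of all genes were, and 3.92% were so in either direction). Bright genes in general were higher in the astragalus array. Over the 2153 genes with a mean level of 10 or more the median was 0.36, and over the 29 members among them it was 0.38.

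The 3 genes past 2-fold were Rpl32l, Rps26 and Rpl8. Rpl32l, a symbol named after Rpl32, was at 14.36 in astragalus and 12.88 in cisplatin (2.79-fold), and it was at 12.77 in control. Rps26 was at 17.06 in astragalus and 15.86 in cisplatin (2.30-fold), and its chromosome 8 cluster at 16.03 in astragalus and 14.42 in cisplatin. Rpl8, next to the site where peptide bonds form, was at 12.48 in astragalus and 11.35 in cisplatin (2.19-fold). With the loess trend removed 1 member was past 2-fold. Next came Rpl12, of the stalk base, at 17.69 in astragalus and 16.95 in cisplatin, Rps7 at 15.04 in astragalus and 14.30 in cisplatin, and Rps27l at 9.14 in astragalus and 8.44 in cisplatin. The lower genes differed by little: Rpl31 by -0.08, and Rpl7l1 and Rps14 by -0.01 each. Rpl11, Rps24, Rps29, Rpl7a and Rpl41 were equal on both arrays.

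By subunit the astragalus minus cisplatin median was 0.13 over the 15 small subunit genes and 0.35 over the 18 large subunit genes. The other 9 symbols had 0.40. The subunits were not recalculated under other scalings.

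Electro-acupuncture was set against cisplatin in the same way. The genes stood close to the cisplatin array. In electro-acupuncture 31 of 42 were higher, 9 equal and 2 lower, while of all genes 52.5% were higher, 2.96% equal and 44.5% lower. The median was 0.08 against 0.02 over all genes. With the loess trend removed it was 0.02, with 22 higher and 20 lower. The 9 equal genes were Rps3a1, Rps9, Rps20, Rps29, Rpl19, Rpl37a, Rpl38, Rpl39 and, at the ceiling, Rpl41.

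Only Rpl32l was at least 2-fold higher, at 14.39 in electro-acupuncture and 12.88 in cisplatin (2.85-fold), 1 of 42 genes against 1.32% of all genes, and none was at least 2-fold lower, against 2.59% (3.91% in either direction). Rpl6l, the pseudogene, was at 15.91 in electro-acupuncture and 15.10 in cisplatin (1.75-fold). Among genes of the ribosome, Rps26 was at 16.63 in electro-acupuncture and 15.86 in cisplatin (1.71-fold) and Rpl6 at 10.73 in electro-acupuncture and 10.27 in cisplatin (1.38-fold). Rpl22l1 was at 12.76 in electro-acupuncture and 12.22 in cisplatin (1.45-fold), and Rps27l was at 8.97 in electro-acupuncture and 8.44 in cisplatin (1.44-fold). The lower genes were Rpl7l1, at 7.38 in electro-acupuncture and 7.69 in cisplatin, and Rps19bp1, at 7.67 in electro-acupuncture and 7.71 in cisplatin, and neither is a protein of the mature ribosome.

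Against the control array, astragalus was higher for 39 of the 42 genes, equal for 2 and lower for 1, while of all genes 55.3% were higher, 1.88% equal and 42.8% lower. Electro-acupuncture was higher than control for 39 and equal for 3, while of all genes 53.7% were higher, 2.23% equal and 44.0% lower. The medians were 0.58 in astragalus and 0.50 in electro-acupuncture, against 0.05 and 0.04 over all genes, and with the loess trend removed they were 0.25 and 0.35. At least 2-fold higher were 10 genes in astragalus (6.13% of all genes) and 6 in electro-acupuncture (4.15%), and none was at least 2-fold lower (2.68% and 3.11% of all genes). In either direction 8.80% of all genes were at least 2-fold different in astragalus and 7.26% in electro-acupuncture. With control as baseline, the count in astragalus was 5 with the loess trend removed and 6 after quantile normalization, against 6.59% and 7.19% of all genes different in either direction under those scalings. With own-chromosome clusters alone it was 7 of 40 genes in astragalus and 4 of 40 in electro-acupuncture, against 8.74% and 7.18% of all genes in either direction. Among the 29 members with a mean level of 10 or more, 9 (31.0%) were at least 2-fold higher in astragalus and 5 (17.2%) in electro-acupuncture, and among all 2153 genes at that level the shares were 28.2% and 18.6%. The members' shares were thus near those of bright genes in general, while their medians were 0.81 in astragalus and 0.54 in electro-acupuncture, against 0.45 and 0.17 over those bright genes. Both comparisons use the same control array as that of cisplatin. Rps26 differed most, by 2.14 in astragalus and 1.71 in electro-acupuncture, followed in astragalus by Rpl27 (1.97) and Rpl8 (1.62) and in electro-acupuncture by Rpl32l (1.62) and Rpl27 (1.46). On its own chromosome Rpl27 differed from control by 0.71 in astragalus and 0.75 in electro-acupuncture. Rpl12 was at 17.69 in astragalus and 16.28 in control (2.66-fold), and at 17.40 in electro-acupuncture (2.17-fold). Rps27l stood 2.66-fold and Rpl22l1 2.35-fold above control in astragalus, and 2.36-fold and 2.41-fold above it in electro-acupuncture. In astragalus alone, Rpl8, Rpl35 (2.39-fold), Rpl4 (2.27-fold), which lines the peptide tunnel, and Rps7 (2.06-fold) were past 2-fold as well. For Rpl35 that is its chromosome 1 cluster, and the one on its own chromosome was 0.26 higher than control in astragalus and 0.26 in electro-acupuncture. Rpl6l alone was lower in astragalus than in control (-0.17).

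Between astragalus and electro-acupuncture the median was 0.13 with 31 genes higher, 2 equal and 9 lower, while of all genes 57.5% were higher, 2.29% equal and 40.2% lower. No member was at least 2-fold different, against 1.52% of all genes (0.651% higher and 0.872% lower). The direction is not settled, because the median was -0.05 after quantile normalization and -0.12 with the loess trend removed. Rpl8 was at 12.48 in astragalus and 11.64 in electro-acupuncture, the largest difference (0.84), followed by Rpl27 (0.51) and Rpl4 (0.48). Rpl6l was at 15.20 in astragalus and 15.91 in electro-acupuncture (-0.71), and Rpl31 (-0.40) and Rpl7a (-0.29) were lower in astragalus too.

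**Figure D4:**
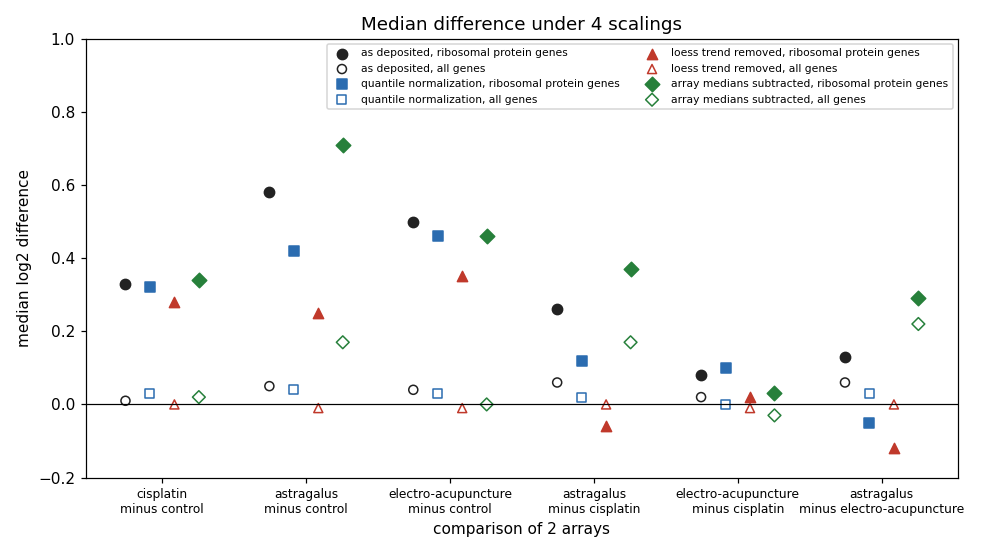
Median log2 difference (vertical axis) of the ribosomal protein genes (filled) and of all genes (open) in the 6 comparisons under 4 scalings of the arrays. The medians against control stay above 0 under each scaling, while those of astragalus against cisplatin and electro-acupuncture fall to -0.06 and -0.12 with the loess trend removed.

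Features most like these genes were set beside them. Mitochondrial ribosomal protein genes, which serve the separate ribosome of the mitochondria, had a cisplatin minus control median of 0.15 over 78 genes, with 64 higher. Ribosomal protein pseudogenes had 0.39 over 209, with 180 higher and 28 (13.4%) at least 2-fold higher. Of the mitochondrial set 1 gene (1.28%) was at least 2-fold higher. The share was 2.00% over all genes and 9.01% over those with a mean level of 10 or more, and 50.6% of all genes were higher. In astragalus minus control the medians were 0.38 for the mitochondrial set and 0.89 for the pseudogenes, and in electro-acupuncture minus control they were 0.32 and 0.57. The cytosolic genes, at 0.33, 0.58 and 0.50, lay between them in each of these comparisons, which share the control array. They also lay between them in astragalus minus cisplatin and astragalus minus electro-acupuncture. In electro-acupuncture minus cisplatin they did not, at 0.08, against 0.115 for the mitochondrial set and 0.08 for the pseudogenes. No test of these differences was possible with 1 array per group.

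Genes that work with the ribosome were higher in the cisplatin array too. Of 18 translation factors and related genes with TOP messenger RNAs, 16 were higher in cisplatin than in control and 2 were equal, with a median of 0.43. Eef2, the factor that moves the ribosome along, was at 15.84 in cisplatin and 14.92 in control, and Eif3h, of the initiation factor eIF3, was at 12.76 in cisplatin and 11.90 in control. Of 37 genes of ribosome assembly and RNA polymerase I, which makes ribosomal RNA, 35 were higher, with a median of 0.34. Ncl, the nucleolar protein nucleolin, was at 14.38 in cisplatin and 13.36 in control, the only one past 2-fold. Of all genes 50.6% were higher in cisplatin than in control, 46.9% were lower and 2.00% were at least 2-fold higher. Fau, which encodes a small subunit protein fused to a ubiquitin-like part and escapes the naming rule, was at 14.33 in cisplatin, 15.50 in astragalus, 15.19 in electro-acupuncture and 13.87 in control, the order seen for 22 of the members.

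In astragalus minus cisplatin the medians were 0.48 for the translation factors, with 14 of 18 higher, and 0.16 for the assembly genes, with 28 of 37 higher. Of all genes 56.8% were higher, with a median of 0.06. Among genes with a mean level of 10 or more 74.7% were higher (median 0.36), and among those below 10 it was 54.2% (median 0.04). In electro-acupuncture minus cisplatin the translation factors had 0.26, with 11 of 18 higher, and the assembly genes 0.08, with 21 of 37 higher. Of all genes 52.5% were higher there, with a median of 0.02. The lists were not recalculated under other scalings. No gene of either list was 2-fold different in these comparisons.

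Markers of some marrow cell types moved with the ribosomal protein genes. Their summed levels are weighted towards the brightest probes and are compared between arrays only. Of all genes 50.6% were higher in cisplatin than in control and 46.9% were lower. All 5 neutrophil precursor genes (Mpo, Elane, Prtn3, Ctsg and Ms4a3) were higher in cisplatin than in control, and their summed level was 13.45 in cisplatin, 14.32 in astragalus, 13.92 in electro-acupuncture and 12.41 in control on the log2 scale, the order of 22 members. The 5 mature neutrophil genes did not move in this way. S100a8 and S100a9, at the ceiling, and Ngp were equal in cisplatin and control. Ltf (16.11 against 16.39) and Camp (17.92 against 18.29) were lower in cisplatin. Their sum, which follows the genes at the ceiling, was 21.40 in cisplatin, 21.47 in astragalus, 21.44 in electro-acupuncture and 21.44 in control. All 5 megakaryocyte genes were higher in cisplatin than in control. Their sum was 19.10 in cisplatin, 19.34 in astragalus, 19.41 in electro-acupuncture and 16.72 in control. That sum follows Ppbp and Pf4. In electro-acupuncture against cisplatin 2 of the 5 were higher, 1 was equal and 2 were lower, Itga2b (8.17 against 8.53) and Gp9 (8.28 against 8.61). The 5 osteoblast genes, 5 of 5 higher in cisplatin, summed to 15.15 in cisplatin, 13.46 in astragalus, 12.32 in electro-acupuncture and 10.72 in control. In cisplatin that sum follows Bglap2 (14.09) and Bglap (13.68). Ibsp, near the floor, was lower in astragalus (5.30) and electro-acupuncture (5.29) than in control (5.42). The 4 fat cell genes, all higher in cisplatin, summed to 12.67 in cisplatin, 12.37 in astragalus, 11.24 in electro-acupuncture and 10.45 in control. That sum follows Scd1 (12.35 in cisplatin, 10.44 in electro-acupuncture), and Adipoq and Lpl were higher in electro-acupuncture (8.63 and 7.87) than in cisplatin (8.01 and 7.50). Of the 7 early B cell genes 6 were above the floor and all 6 were lower in cisplatin, with sums over the 7 of 9.99 in cisplatin, 10.49 in astragalus, 10.44 in electro-acupuncture and 11.51 in control. That sum follows Il7r and Cd79a, and Dntt and Rag2 were higher in electro-acupuncture (7.43 and 5.93) than in control (6.51 and 5.66). The 4 red cell genes, 2 higher and 2 lower in cisplatin, summed to 16.28 in cisplatin, 17.08 in astragalus, 16.48 in electro-acupuncture and 16.21 in control. These sums have the same order of arrays as those of the neutrophil precursors. Alas2 and Rhag had that order too, while Epor and Slc4a1 did not. The part of cell make-up in the levels of the ribosomal protein genes was not tested.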

How the data were processed

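Per the submitters' processing notes, the deposited log2 values, 1 per transcript cluster and array, were made by the authors with Affymetrix Expression Console. Its version is not given in the sources used here, nor are the summary method and normalization. Values run from 2.70 to 19.93, so log2 was read from them.

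Clusters were named from the platform's gene table, with symbols updated through RefSeq (GRCm38.p6, names and chromosomes only). Of 32750 listed clusters, 31258 named 1 gene and were used. A gene's highest-mean cluster was taken, and genes with a mean of at least 5.235, the median of all clusters, were compared. Differences are of 2 log2 values, counted from 2-fold (log2 difference of 1). With 1 array per group the number of arrays limits the precision, and no test was run. The counting was tested on simulated data.

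Quantile normalization, loess (statsmodels 0.14.6, span 0.3), array medians, other floors, cluster means, the ceiling, the members and a 1.5-fold threshold were tried. Named genes were a fixed set, the largest and smallest differences, and members at the ceiling, below the floor or at either end of the levels. The members, lists and rules were chosen with earlier results of these data known. Genes named for equal levels, several clusters or their place in a list of 2-fold genes were picked after their values were seen. Promoter stretches are from RefSeq.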

Additional observations from a re-analysis of the deposited data

How the results depend on the processing

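The median of the ribosomal protein genes kept its sign in 63 of 66 recalculations and moved by at most 0.1 in 56. It turned for astragalus minus cisplatin with loess (-0.06) and for astragalus minus electro-acupuncture with quantile normalization (-0.05) and loess (-0.12). It moved to 0.12 (quantile) and 0.37 (array medians subtracted) for astragalus minus cisplatin, to 0.42, 0.25 and 0.71 (quantile, loess, array medians) for astragalus minus control, to 0.35 (loess) for electro-acupuncture minus control and to 0.29 (array medians) for astragalus minus electro-acupuncture. Subtracting array medians also shifted the median of all genes, to 0.17 for astragalus minus cisplatin and minus control and to 0.22 for astragalus minus electro-acupuncture. All moves and turns of the members' median came with these 3 rescalings. Some other settings could hardly change it. The floor at the 75th percentile kept the same 42 genes, and leaving out the ceiling removed only Rpl41.

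Counts at least 2-fold different moved to 0 for cisplatin minus control with cluster means and with own-chromosome clusters (chosen after seeing the data), to 1 for astragalus minus cisplatin with loess, to 0 for electro-acupuncture minus cisplatin and 3 for electro-acupuncture minus control with core genes only, to 6 (quantile) and 5 (loess) for astragalus minus control, and to 1 for astragalus minus electro-acupuncture with array medians. A 1.5-fold threshold gave 9, 7, 3, 21, 16 and 2 genes for cisplatin minus control, astragalus and electro-acupuncture minus cisplatin, astragalus and electro-acupuncture minus control, and astragalus minus electro-acupuncture, against 11.4%, 14.4%, 11.3%, 21.1%, 18% and 9.86% of all genes. Beyond what each setting does, the causes were not tested. No paired analysis was possible because each group has 1 array. The ceiling and the few arrays limit what can be seen.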

Other observations

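A further 52 clusters name a ribosomal protein gene together with other genes or copies and were kept out of the comparisons. The median difference of cisplatin minus control was 0.29, with 46 clusters higher, 5 equal and 1 lower, and 7 (13.5%) were at least 2-fold higher. Of all genes 50.6% were higher and 2.00% at least 2-fold higher. Among genes with a mean level of 10 or more, 9.01% were at least 2-fold higher.

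Levels identical to the second decimal on different arrays were frequent among the ribosomal protein genes. Of the 41 genes above the floor and below the ceiling, 12 (29.3%) had the same level on at least 2 arrays, against 10.3% of all genes and 13.1% of those with a mean level of 10 or more. Rps29 was at 17.55 in cisplatin, 17.55 in astragalus, 17.55 in electro-acupuncture and 17.22 in control. Rps3a1 was at 17.91 in cisplatin, 18.05 in astragalus, 17.91 in electro-acupuncture and 17.91 in control. Rpl7a was at 18.10 in cisplatin, 18.10 in astragalus, 18.39 in electro-acupuncture and 18.10 in control. For these 3 genes only 2 distinct levels were seen. At most 2 distinct levels were found for 0.873% of all genes and for 3.92% of those with a mean level of 10 or more. Those shares include genes with the same level on all 4 arrays, 63 of all genes and 41 of the bright ones, while no member below the ceiling had that. What makes the levels equal was not tested.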
